A study of Mus musculus with 2 samples.

Results

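Mitosis and cytokinesis genes are the 54 genes listed here by name, and they were found in the array table by exact match to its gene name. Of the 54, 47 were found among 31492 array genes, and the other 7 (AURKA, CENPK, CENPN, NUF2, NCAPG, SMC2 and SMC4) appear under older names and are described apart from the 47. Gene names are in the capitals of the array. The cells were osteoclast precursors of C57BL/6 mice aged 8 weeks, taken from bone marrow by a sort that kept CD115+ cells lacking CD3 and CD45R and with low or no CD11b. Both groups received M-CSF at 30 ng/ml for 3 days, and 1 of them also received 30 ng/ml of RANKL, a cytokine that drives such precursors to become osteoclasts. RNA was taken from the cells that adhered. Each group is given as a mean and SD of 3 biological replicates, each on its own Illumina bead array. What separated the replicates was not given in the sources used here, so p-values measure only the spread between these arrays, and their number limits the precision.

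In mitosis, condensed chromosomes attach through kinetochores to the spindle, a checkpoint holds the cell until all are attached, and the anaphase-promoting complex (APC/C) then releases the sister chromatids before cytokinesis parts the daughter cells. Most of the genes involved are transcribed late in the cycle under FOXM1 and the MYB-MuvB complex, many through a promoter element called the cell cycle genes homology region (CHR). M-CSF keeps osteoclast precursors dividing, whereas osteoclasts arise by fusion of precursors that have stopped dividing.

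Promoters are shown because the genes moved together and because the CHR is the element known for this group. RefSeq promoters of build GRCm38.p6, 250 bases before to 50 after the start, were matched for 44 of the 54 genes. FOXM1, INCENP, PBK and AURKB were among the genes without a match. The CHR was searched as TTTGAA or TTCGAA, the CCAAT box as CCAAT and an E2F-like site as TTCCCGC or TTGGCGC, each on both strands. An E2F-like match can overlap a CCAAT box read on the other strand. In the 100 bases around the start, 26 of the 44 genes (59.1%) held a CHR, against 5.08% of 17492 protein-coding genes. Over the whole 300 bases the shares were 65.9% and 20.2%. The CCAAT box was held by 68.2% of the 44 and 42.3% of protein-coding genes, and an E2F-like site by 25.0% and 9.94%, both over 300 bases. A match describes these letters only. The 6 windows below, 130 bases before to 20 after the start, are those of the genes with the largest falls among those with a CHR in that window. Capitals mark the CHR and CCAAT matches on either strand.

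MKI67: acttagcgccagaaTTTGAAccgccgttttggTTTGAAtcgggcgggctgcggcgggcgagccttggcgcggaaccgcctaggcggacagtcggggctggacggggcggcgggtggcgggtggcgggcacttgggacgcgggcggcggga

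TOP2A: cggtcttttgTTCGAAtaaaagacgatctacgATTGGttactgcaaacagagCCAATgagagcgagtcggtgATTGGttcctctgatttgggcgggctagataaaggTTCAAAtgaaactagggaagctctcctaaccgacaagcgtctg

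PRC1: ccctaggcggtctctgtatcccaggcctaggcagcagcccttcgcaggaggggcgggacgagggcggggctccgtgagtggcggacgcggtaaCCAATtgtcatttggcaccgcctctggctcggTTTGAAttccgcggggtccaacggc

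CDCA8: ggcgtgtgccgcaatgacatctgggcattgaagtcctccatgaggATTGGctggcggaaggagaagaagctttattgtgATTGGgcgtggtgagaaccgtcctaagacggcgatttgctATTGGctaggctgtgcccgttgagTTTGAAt

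NCAPD2: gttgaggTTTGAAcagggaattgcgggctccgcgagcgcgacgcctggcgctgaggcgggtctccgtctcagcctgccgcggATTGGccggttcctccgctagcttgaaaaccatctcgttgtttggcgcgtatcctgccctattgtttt

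CKAP2: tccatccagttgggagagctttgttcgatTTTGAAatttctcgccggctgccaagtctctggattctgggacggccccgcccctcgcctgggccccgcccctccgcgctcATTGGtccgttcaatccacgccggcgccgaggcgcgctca

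The window of MKI67 is chr7:135716360-135716509 on the minus strand. The window of TOP2A is chr11:99024170-99024319 on the minus strand. The window of PRC1 is chr7:80294321-80294470 on the plus strand. The window of CDCA8 is chr4:124936898-124937047 on the minus strand. The window of NCAPD2 is chr6:125191567-125191716 on the minus strand. The window of CKAP2 is chr8:22185800-22185949 on the minus strand. In PRC1 and CDCA8 a CHR lay within 20 bases of the start, whereas in NCAPD2 and CKAP2 it lay farther before it. MKI67 and TOP2A each held a pair, all beginning more than 20 bases before the start. MKI67, NCAPD2 and CKAP2 held no CHR in the 100 bases around the start. NDC80, SPC25 and ANLN fell and held a CHR there, but outside the printed window. Among genes of the list that fell, 15 of 29 with a promoter held a CHR in the 100 bases around the start. Among those on the array that were not called lower, 7 of 9 did, but 5 of these 9 (BUB1, TTK, CENPE, HMMR and RACGAP1) read near background and have no measured change.

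The comparison asks how the mitotic programme differs after RANKL is added to M-CSF. Most of its genes were lower with RANKL, from the transcription factor FOXM1 to the cytokinesis scaffold ANLN. Over the 27 genes called lower, the median fall was 1.71-fold, with PTTG1 and CIT entered at their lower bounds. The largest fall was 2.67-fold for INCENP. Of 31 genes whose detection p was below 0.01 in either group, 27 fell, 0 rose and 4 did not pass at an adjusted p of 0.05 (limma, moderated). Over the 11012 array genes tested in the same way, 29.0% were lower and 28.9% higher. Of the 28 genes of the list detected in both groups, 25 fell, against 28.6% of the 9270 such array genes. The other 3 of the 31 (BUB3, PTTG1 and CIT) were detected with M-CSF alone. BUB3 still read well above background in both groups, 507 with M-CSF and 490 with RANKL. The median log2 ratio was −0.71 over the 31 tested and −0.70 over all 47, against 0.00 over all tested array genes. Among these 31, a fall of 2-fold or more was seen in 5 genes (INCENP, PBK, NCAPH, SPC25 and TOP2A). These are 16.1% of the 31 tested, against 7.01% of all tested array genes, and 18.5% of the 27 that fell, against 24.2% of all array genes that fell. The mean ± 1 SD ranges of the groups were apart, with RANKL lower, in 27 of the 31 tested genes, against 30.8% of all tested array genes. SDs of the 47 genes had a median of 8.43% of the mean with M-CSF (range 1.62% to 22.2%) and 7.09% with RANKL (range 0.63% to 19.5%). With both SDs doubled 18 of the 31 fell, without BUB1B, MAD2L1, PTTG1, CENPA, CENPF, TACC3, H2AFZ, CIT and SHCBP1. In a test of linear means 21 fell, without PLK1, PTTG1, CENPA, TPX2, TACC3 and CIT. The share over all array genes was not counted with doubled SDs or linear means. In bulk RNA, fewer dividing cells and less of these transcripts per dividing cell cannot be told apart.

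The detection p left out 11 further genes of the list although their mean signal over both groups was at least 200, and some were bright, up to 8524 with M-CSF for PRC1. For these genes the deposited detection p does not follow the signal, as for 1063 array genes in all. They were tested with a filter on mean signal of 200 or more in place of detection, which took in 41 genes of the list. By that test 36 of the 41 fell, 1 rose and 4 did not pass, while 29.4% of 11279 array genes were lower and 29.1% higher. A fall of 2-fold or more was seen in 8 of the 41, against 823 of the 11279. MKI67, NDC80 and ANLN were the ones not already named above. Of the 11 left out by detection, 10 fell and 1, ESPL1, rose. Of the 1063 array genes left out in the same way, 294 (27.7%) were lower. Adjusted p-values for these 11 are from the signal-filter fit and are named as such. The remaining 5 genes, BUB1, TTK, CENPE, HMMR and RACGAP1, read close to background, which had a median of 145 in both groups, and were under both minima. Tested with no filter, none of these 5 passed (adjusted p from 0.0523 for RACGAP1 to 0.857 for HMMR, limma). The plot of signals shows each mean with its SD.

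**Figure D1:**
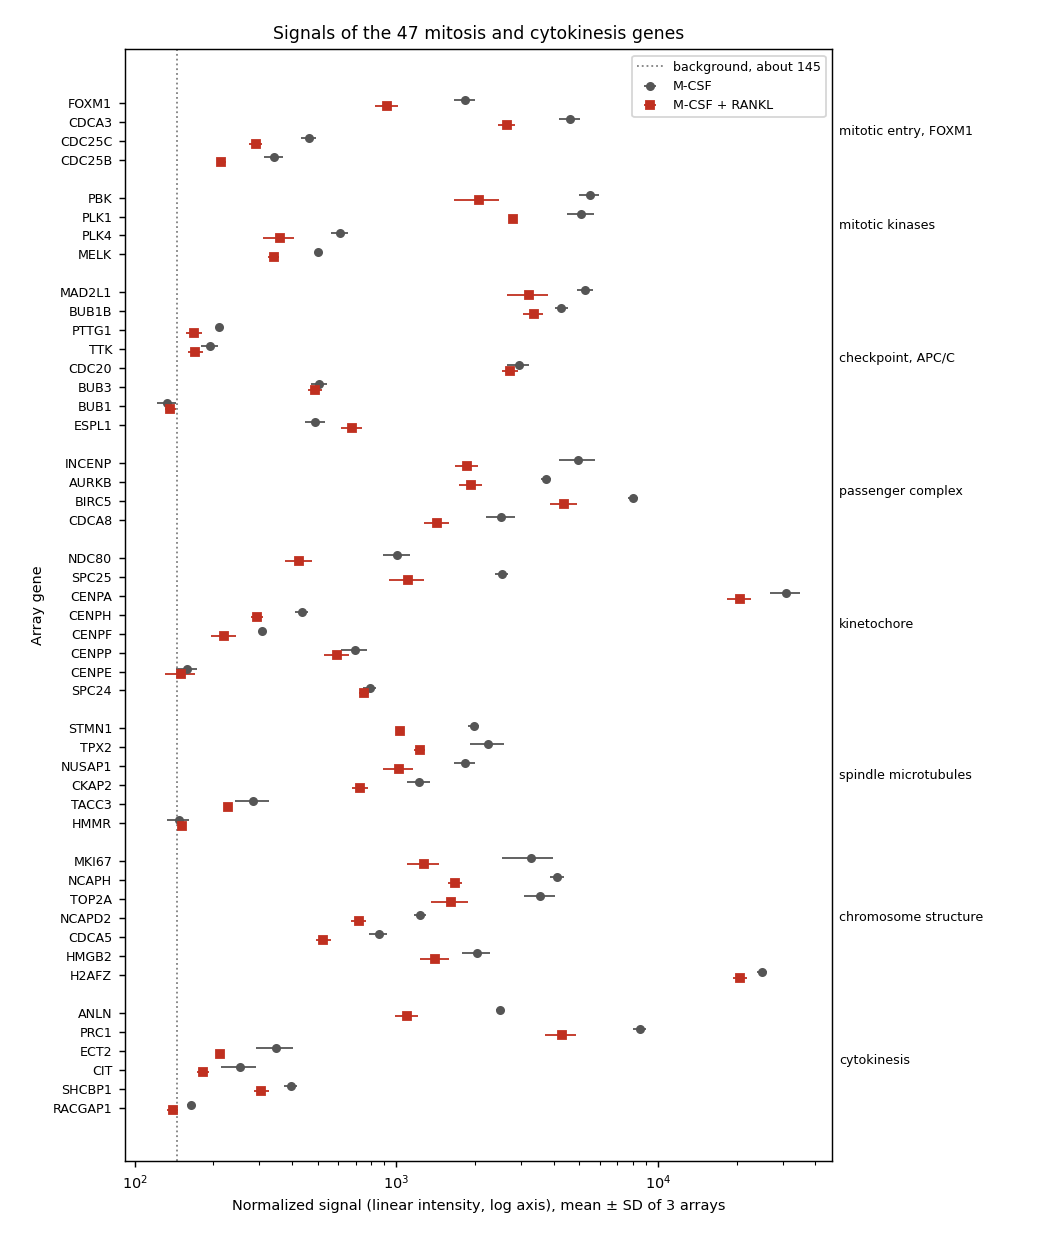
Normalized signal (linear intensity, log axis) of the 47 genes by role, as mean ± SD of 3 arrays, with M-CSF in grey and M-CSF + RANKL in red. Most red points lie to the left of the grey ones. The SD ranges of CDC20, BUB3, SPC24 and CENPP overlap, as do those of CENPE, TTK, BUB1 and HMMR near background. ESPL1 lies to the right, and BUB1 and HMMR slightly so.

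Genes of mitotic entry all fell. FOXM1, the transcription factor of late-cycle genes, read 1829.6 ± 168 with M-CSF and 923 ± 95.4 with RANKL. Its signal was 1.98-fold lower (log2 −0.99 ± 0.11 SE, adjusted p = 1.27e-05, limma), and the SD ranges were far apart. CDCA3, which promotes entry through destruction of the inhibitor WEE1, read 4600.2 ± 419 with M-CSF and 2643 ± 187 with RANKL, a 1.74-fold fall. The phosphatases CDC25B and CDC25C, which activate CDK1, each had signals within a few times background. CDC25B read 340.1 ± 28.7 with M-CSF and 214 ± 8.59 with RANKL, a 1.59-fold fall and the smallest of the group by log2 ratio (−0.67). CDC25C read 464 ± 29.7 with M-CSF and 289.9 ± 15.6 with RANKL (log2 −0.68 ± 0.09 SE, adjusted p = 5.78e-05, limma with the signal filter). Background compresses ratios of dim signals, and after its subtraction the log2 ratios were −1.49 and −1.14, against −1.11 for FOXM1.

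The mitotic kinases found by name also fell, by unequal amounts. PBK, a kinase active in mitosis, read 5481 ± 466 with M-CSF and 2066 ± 403 with RANKL, a 2.65-fold fall (log2 −1.41 ± 0.13 SE, adjusted p = 2.58e-06, limma). PLK1, which drives spindle assembly and mitotic exit, went from 5091 ± 603 to 2792 ± 84.9, a 1.82-fold fall. PLK4, the kinase of centriole duplication, went from 609.7 ± 46.4 to 359 ± 48.9 (log2 −0.76, adjusted p = 0.000117, limma with the signal filter). A second array gene of PLK4, listed under STK18, read at background in both groups. MELK, a kinase of proliferating cells, had the smallest fall of the group, from 502 ± 10.2 to 340.5 ± 16.9 (log2 −0.56 ± 0.09 SE). The 95% intervals of PBK (−1.70 to −1.12) and MELK (−0.76 to −0.36) did not overlap, though the difference between genes was not tested.

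The spindle checkpoint and the anaphase machinery were divided. MAD2L1, which inhibits the APC/C until chromosomes are attached, read 5279 ± 363 with M-CSF and 3228 ± 583 with RANKL, a 1.64-fold fall (log2 −0.71 ± 0.12 SE, adjusted p = 0.000422, limma). Its checkpoint partner BUB1B fell from 4277 ± 243 to 3347 ± 288 (log2 −0.35 ± 0.10 SE). BUB3, which brings the BUB proteins to kinetochores, read 507 ± 36.0 with M-CSF and 490.2 ± 29.7 with RANKL, and its SD ranges overlapped (adjusted p = 0.702, limma, 95% interval of the log2 ratio −0.27 to 0.17). CDC20, the activator of the APC/C, read 2937 ± 277 with M-CSF and 2728 ± 194 with RANKL and did not pass either (adjusted p = 0.394, limma, 95% interval −0.33 to 0.12). Both intervals leave out a fall of 1.5-fold or more. PTTG1 is securin, the inhibitor of separase, and read 210.0 ± 3.40 with M-CSF and 169 ± 11.7 with RANKL. It was not detected with RANKL, so its fall was at least 1.07-fold, the M-CSF mean over the lowest signal detected with RANKL, 196. ESPL1, separase itself, was the gene of the list that rose, from 491 ± 42.6 to 679 ± 61.5 (log2 0.47 ± 0.11 SE, adjusted p = 0.00256, limma with the signal filter). Its detection p was 0.01 or more in both groups, so the call rests on that filter. The kinase TTK, which starts the checkpoint, read 194 ± 15.2 with M-CSF and 171 ± 11.4 with RANKL, and the kinase BUB1 read 133 ± 11.4 with M-CSF and 137 ± 6.84 with RANKL, both detected in neither group.

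All 4 subunits of the chromosomal passenger complex fell, while 29.0% of all tested array genes were lower. The complex corrects faulty attachments and later directs cytokinesis. INCENP, its scaffold, read 4959 ± 775 with M-CSF and 1861 ± 187 with RANKL, a 2.67-fold fall and, with PBK, the largest of the list as deposited (log2 −1.41 ± 0.12 SE, adjusted p = 1.29e-06, limma). AURKB, its kinase, went from 3729 ± 160.2 to 1927 ± 190.4 (log2 −0.95). BIRC5 (survivin) went from 8017 ± 360.5 to 4392 ± 535 (log2 −0.87). CDCA8 (borealin) had the smallest fall of the complex, from 2519 ± 321 to 1435 ± 154 (log2 −0.81 ± 0.12 SE). The interval of INCENP (−1.69 to −1.14) overlapped that of AURKB (−1.17 to −0.73) but not those of BIRC5 (−1.09 to −0.65) and CDCA8 (−1.07 to −0.55), and differences between genes were not tested.

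Among centromere and kinetochore genes the subunits of the NDC80 complex, which holds spindle microtubules, went apart. NDC80 read 1010.3 ± 122 with M-CSF and 426 ± 51.2 with RANKL (log2 −1.25 ± 0.12 SE, adjusted p = 2.95e-06, limma with the signal filter). SPC25 read 2529 ± 154 with M-CSF and 1105 ± 166 with RANKL, a 2.29-fold fall (log2 −1.19 ± 0.12 SE, adjusted p = 4.03e-06, limma). A second array gene of SPC25, listed under 2610205L13RIK, read 189 ± 14.3 with M-CSF and 149.7 ± 12.3 with RANKL and was detected in neither group. SPC24, which pairs with SPC25 in the complex, read 790.4 ± 43.6 with M-CSF and 755 ± 33.5 with RANKL and did not pass (adjusted p = 0.575, limma). The 95% interval of the log2 ratio was −0.28 to 0.14 for SPC24 and −1.46 to −0.93 for SPC25, and the difference was not tested. CENPA, the histone H3 variant that marks centromeres, went from 30858 ± 4022 to 20567 ± 2203 (log2 −0.59 ± 0.10 SE). CENPH, of the inner kinetochore, fell from 435 ± 25.9 to 294 ± 14.96 (log2 −0.57, signal filter), and CENPF, an outer kinetochore protein, from 307 ± 7.92 to 219.6 ± 24.3 (log2 −0.48). CENPP, another inner subunit, read 694 ± 81.2 with M-CSF and 592 ± 65.2 with RANKL, with overlapping SD ranges (adjusted p = 0.12, limma), and its second array gene, 4921518G09RIK, read at background. CENPE, the kinetochore kinesin, read 159 ± 14.5 with M-CSF and 150.2 ± 19.7 with RANKL, near background.

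**Figure D2:**
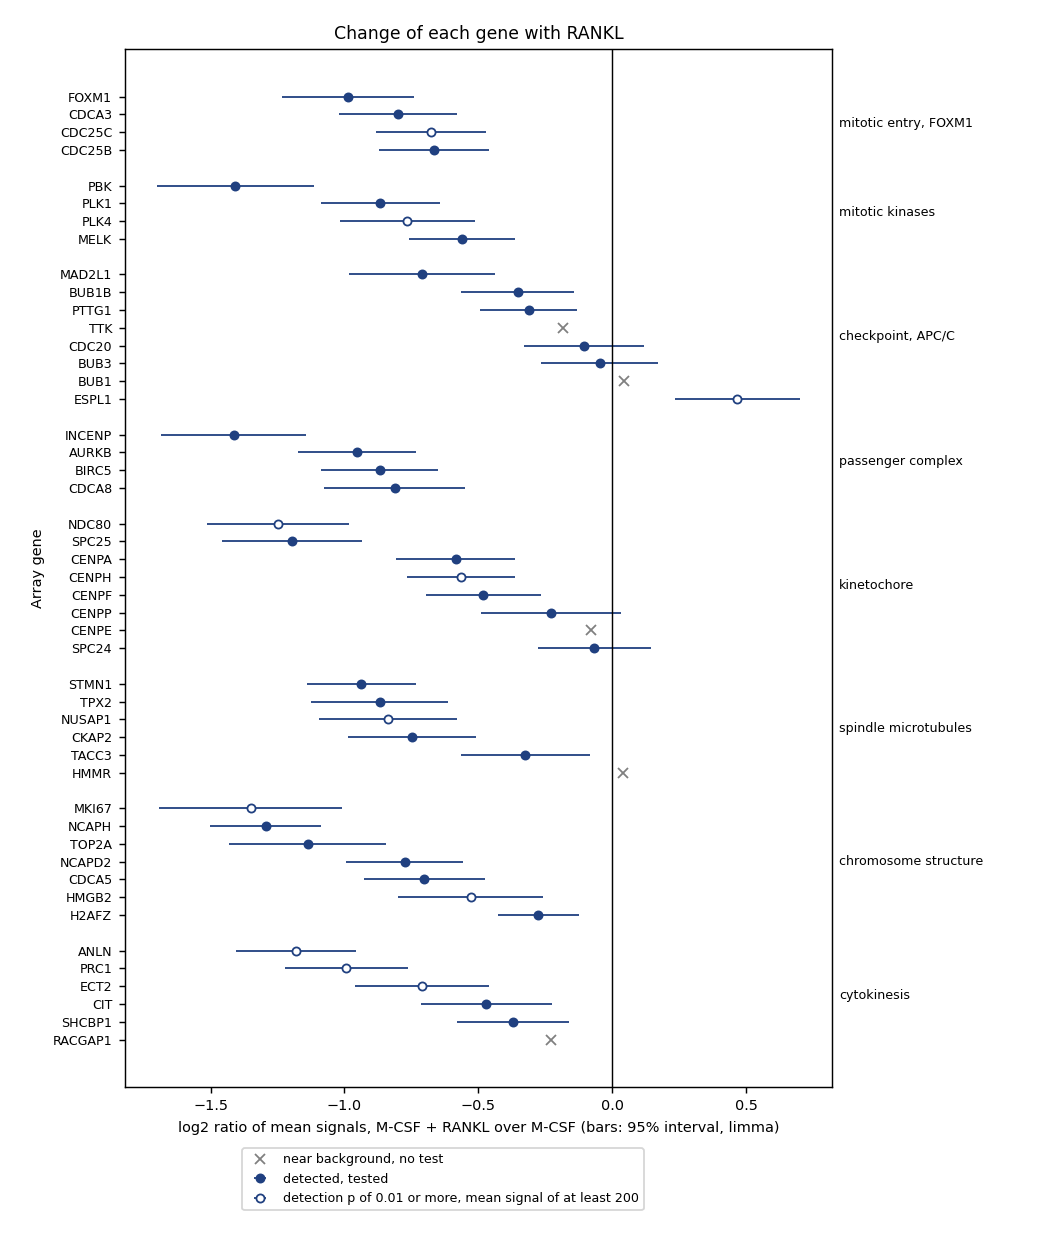
Log2 ratio of the group means (M-CSF + RANKL over M-CSF) for the 47 genes by role, with 95% intervals from limma. Filled points were tested after the detection filter, open points with the signal filter only, and crosses are genes near background with no test. INCENP and PBK lie farthest to the left, and ESPL1 is the point with its interval above 0.

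Of 6 spindle and microtubule genes 5 fell, NUSAP1 only with the signal filter, and HMMR was at background. By comparison, 29.0% of array genes were lower with the detection filter and 29.4% with the signal filter. STMN1 (stathmin), which destabilises microtubules, read 1976 ± 101 with M-CSF and 1032 ± 6.53 with RANKL, the largest fall of the group (log2 −0.94 ± 0.09 SE, adjusted p = 3.83e-06, limma). TPX2, which nucleates spindle microtubules, went from 2244 ± 328 to 1229.7 ± 60.3 (log2 −0.87). NUSAP1, which bundles them, fell from 1826 ± 166 to 1022 ± 133 (log2 −0.84, signal filter). CKAP2, a cytoskeleton-associated protein of the spindle, fell from 1223 ± 123 to 728 ± 51.4 (log2 −0.75). TACC3, which stabilises spindle fibres, had the smallest fall, from 284 ± 42.7 to 227 ± 6.64 (log2 −0.32 ± 0.11 SE, adjusted p = 0.0242, limma). This call was lost without moderation (adjusted p = 0.107, limma's pooled variance unmoderated), with doubled SDs (0.321) and in the test of linear means (0.214). HMMR, a spindle assembly factor and hyaluronan receptor, read 148 ± 14.2 with M-CSF and 152 ± 3.45 with RANKL, at background.

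All 7 genes of chromosome structure found by name fell, 5 with the detection filter and 2 (MKI67 and HMGB2) only with the signal filter. Among all array genes 29.0% were lower with the first filter and 29.4% with the other. MKI67 (Ki-67), the common stain for dividing cells, read 3262 ± 725 with M-CSF and 1279 ± 179.6 with RANKL (log2 −1.35 ± 0.16 SE, adjusted p = 1.30e-05, limma with the signal filter). It had the largest fall of the group and, with M-CSF, the largest SD relative to its mean among the 47 (22.2%). The condensin subunits found by name, which compact chromosomes, were lower. Of those described apart below, NCAPG fell, SMC2 did not pass and the array genes of SMC4 were divided. NCAPH went from 4122 ± 251 to 1680.2 ± 98.4 (log2 −1.29 ± 0.10 SE), and a second array gene of NCAPH, listed under BRRN1, went from 2338 ± 196 to 980.3 ± 19.8 (log2 −1.25). NCAPD2 went from 1229.5 ± 65.1 to 718 ± 47.9 (log2 −0.78). TOP2A, the topoisomerase that untangles sister chromatids, fell 2.20-fold from 3557 ± 479 to 1616 ± 257. CDCA5 (sororin), which protects cohesion, fell 1.63-fold from 857 ± 68.7 to 527 ± 34.2. The log2 ratios of the chromatin proteins lay nearest 0. HMGB2 read 2036 ± 249.7 with M-CSF and 1411 ± 178 with RANKL (log2 −0.53, signal filter). H2AFZ, the histone variant H2A.Z, read 24985 ± 1051 with M-CSF and 20624 ± 1196 with RANKL, the smallest fall of the group (log2 −0.28 ± 0.07 SE, adjusted p = 0.00466, limma).

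Of 6 cytokinesis genes 5 fell, 2 with the detection filter and the others only with the signal filter, and RACGAP1 was near background. The shares of array genes that were lower with these filters were 29.0% and 29.4%. ANLN (anillin), which organises the contractile ring, read 2491 ± 85.4 with M-CSF and 1099 ± 108 with RANKL, the largest fall of the group as deposited (log2 −1.18 ± 0.10 SE, adjusted p = 1.06e-06, limma with the signal filter). After subtraction of background the log2 ratios of ECT2 (−1.59) and CIT (−1.52) were farther from 0 than that of ANLN (−1.30). PRC1, which bundles microtubules of the midzone, went from 8524 ± 499 to 4283 ± 569.5 (log2 −0.99, signal filter). ECT2, the exchange factor that activates RhoA at the ring, fell from 348 ± 56.3 to 212 ± 4.55 (log2 −0.71, signal filter). CIT, citron kinase, read 252 ± 38.9 with M-CSF and 182 ± 9.40 with RANKL and was not detected with RANKL, so its fall was at least 1.29-fold. This call was lost without moderation (adjusted p = 0.0521, limma's pooled variance unmoderated), with doubled SDs (0.148) and in the test of linear means (0.142). A further array gene of CIT, listed under C030025P15RIK, went from 1065 ± 111 to 472 ± 86.5 (log2 −1.18 ± 0.14 SE, adjusted p = 1.53e-05, limma). SHCBP1, a partner of centralspindlin at the midbody, had the log2 ratio nearest 0 of the group's called genes and went from 395 ± 23.9 to 305 ± 20.5 (log2 −0.37 ± 0.10 SE). RACGAP1, a subunit of centralspindlin, read 164 ± 5.18 with M-CSF and 139.8 ± 6.64 with RANKL, detected in neither group.

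The 7 genes absent by name were paired through RefSeq synonyms with 8 array genes, of which 6 were tested. Of these 6, 3 fell and 3 did not pass, while 29.0% of all tested array genes were lower. These few genes do not tell the count from that share, and 2 of the 6 are of SMC4. AURKA, the kinase of centrosomes and spindle poles, is listed under STK6 and read 3142 ± 230.0 with M-CSF and 2682 ± 288 with RANKL, a difference that did not pass (log2 −0.23 ± 0.11 SE, adjusted p = 0.0847, limma). CENPN, of the inner kinetochore, fell from 1511 ± 138 to 1041 ± 120.4 (log2 −0.54). The condensin subunit NCAPG fell from 243 ± 24.4 to 203 ± 12.1 (log2 −0.26), whereas SMC2, listed under SMC2L1, read 259 ± 18.5 with M-CSF and 218 ± 41.1 with RANKL and did not pass. SMC4 has 2 array genes, of which 2500002A22RIK fell (log2 −0.58, adjusted p = 0.000435, limma) and SMC4L1 did not pass (log2 −0.39, adjusted p = 0.0558, limma). CENPK, under SOLT, was left out by detection and fell with the signal filter (log2 −0.47). NUF2, of the NDC80 complex, is listed under CDCA1 and read 133 ± 16.97 with M-CSF and 134 ± 11.1 with RANKL, at background.

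The signal level of each gene was set against its ratio. Across the 41 genes over the signal minimum, Spearman's rho between log2 ratio and mean log2 signal was −0.39, and after subtraction of background it was 0.17. These genes share the arrays and the background, and the value is a description across genes. The median log2 ratio of the 41 was −0.75, or −0.94 after subtraction. The plot against signal level sets the genes among all tested array genes.

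**Figure D3:**
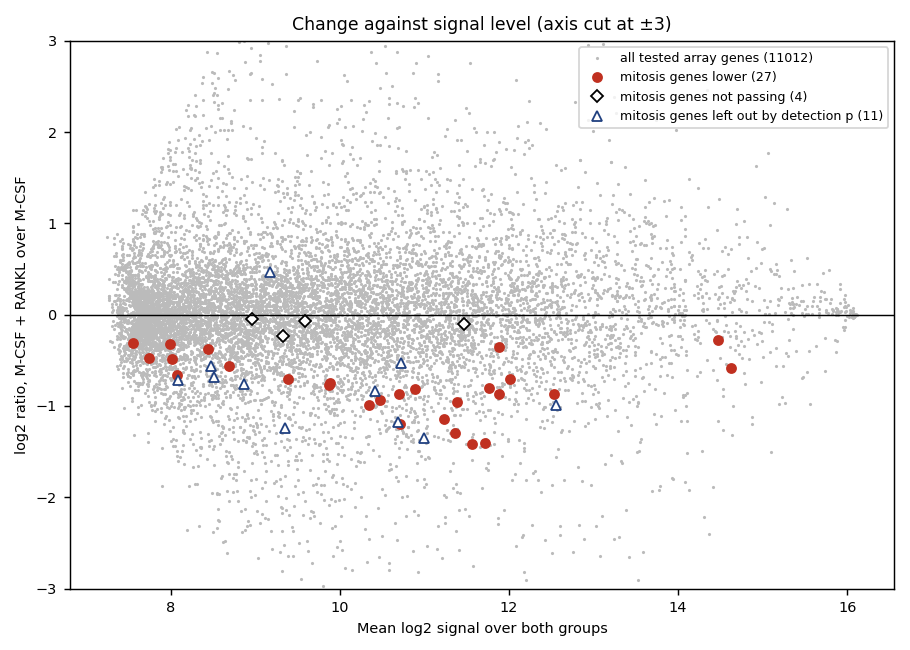
Log2 ratio (M-CSF + RANKL over M-CSF) against mean log2 signal over both groups for 11012 tested array genes (grey) and the genes of the list. Filled red points are the 27 that fell, diamonds the 4 that did not pass, and triangles the 11 left out by detection p. The vertical axis ends at ±3, beyond which 130 array genes lie.

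Other mitosis genes, a list of 87 names of which 59 were on the array, gave 29 falls, 1 rise and 13 not passing among 43 tested, with a median log2 ratio of −0.54. LMNB1, a lamin of the nuclear envelope, had the largest fall as deposited, from 8105 ± 1052 to 3449 ± 929.6 (log2 −1.23 ± 0.17 SE). The gene that rose was CDC16, a subunit of the APC/C, from 3029 ± 109 to 3596 ± 93.4 (log2 0.25, adjusted p = 0.0275, limma). Among regulators of mitotic gene transcription, 10 of 13 tested fell, 0 rose and 3 did not pass. Beside both lists, 29.0% of all tested array genes were lower and 28.9% higher. E2F2, an activator of S phase genes, fell most, from 1921 ± 97.0 to 475 ± 53.0 (log2 −2.02 ± 0.11 SE). CDKN1A (log2 −1.98), RB1 (−1.37), RBL1 (−1.21), E2F1 (−0.95), TFDP1 (−0.76), RBBP4 (−0.69), E2F4 (−0.57) and E2F6 (−0.25) fell too. The 3 that did not pass were TRP53 (log2 −0.10), MYBL2 (log2 −0.07) and E2F3 (log2 0.03). MYBL2 encodes B-MYB, the MYB subunit of the MYB-MuvB complex, and read 734 ± 13.8 with M-CSF and 699 ± 65.8 with RANKL, with overlapping SD ranges. LIN54, the CHR-binding subunit of MuvB, fell from 3645 ± 139.9 to 1795 ± 156 (log2 −1.02), which was named after its value was seen.

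DNA replication genes, another set used by dividing cells, gave 28 falls, 0 rises and 5 not passing among 33 tested, with a median log2 ratio of −0.59. Of all tested array genes 29.0% were lower. LIG1, the replicative DNA ligase, had the largest fall, from 2958 ± 143 to 1066 ± 73.4 (log2 −1.47 ± 0.10 SE). The 5 not passing were RPA3 (log2 −0.33), ORC6 (log2 −0.25), RFC5 (log2 −0.20), POLA2 (log2 0.13) and RFC2 (log2 0.17). Differences between these lists were not tested, and the plot of calls by list sets their shares side by side.

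**Figure D4:**
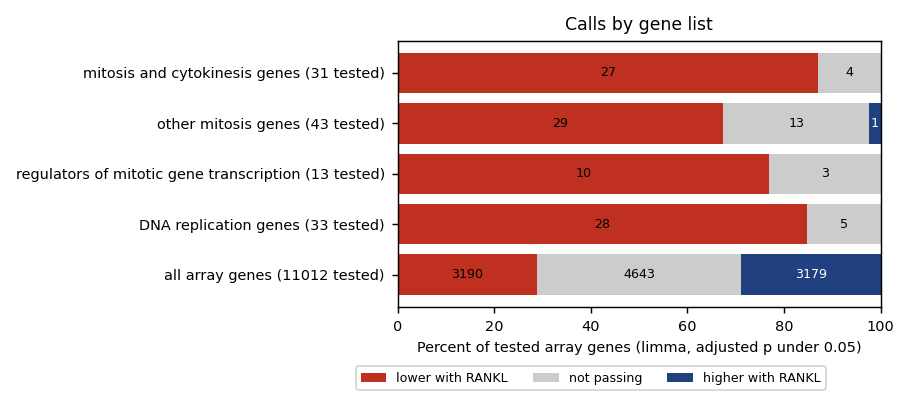
Percent of tested array genes called lower (red), not passing (grey) or higher (blue) with RANKL by limma, with the number of genes in each segment. In each of the 4 lists most tested genes were lower, whereas all tested array genes divided into 3190 lower, 4643 not passing and 3179 higher.

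Markers of the labelled cells and of others were read beside these results. All 10 myeloid markers were detected in both groups, and 4 of 9 osteoclast markers were detected with M-CSF and 7 with RANKL. Their summed signal went from 2017 to 155479 for osteoclast markers and from 170379.6 to 116178 for myeloid markers. By limma 7 of the 10 myeloid markers were lower, 1 was higher and 2 had no call, whereas all 7 osteoclast markers tested were higher. The myeloid share called lower was 70%, beside 87.1% for the mitosis list and 67.4% for other mitosis genes. Median log2 ratios were −0.55, −0.71 and −0.54 in that order. Whether the myeloid markers differ from these lists was not tested. B cell markers were detected in 1 of 6 genes in each group (CD79B), T and NK cell markers in 0 of 8, megakaryocyte markers in 0 of 4, erythroid markers in 1 and 2 of 7, and stromal and endothelial markers in 0 and 1 of 8. Summed signals in the 2 groups were 1002 and 920.2 over the 6 B cell markers, 1218 and 1190.1 over the 8 of T and NK cells, 659 and 649 over the 4 of megakaryocytes, 1086 and 1115 over the 7 of erythroid cells, and 1234 and 1234 over the 8 stromal and endothelial ones. No marker was listed at 0, since background itself read 145. Granulocyte and early myeloid markers were detected in 7 of 9 in both groups, and their summed signal was 20792 with M-CSF and 15544 with RANKL. In that list MPO, an enzyme of promyelocytes, read 4719.6 ± 2588 with M-CSF and 3399.8 ± 1525 with RANKL and PRTN3 read 3056 ± 1481 with M-CSF and 2082 ± 999.6 with RANKL, with wide SDs, and neither passed (adjusted p = 0.277 and 0.191, limma). S100A8 fell from 6265 ± 845 to 4648 ± 611 and S100A9 from 1929 ± 147 to 1419.7 ± 233. The part of such cells in the falls of mitotic genes was not tested.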

How the data were processed

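RNA of sorted mouse osteoclast precursors was hybridised to Illumina arrays. Each of the 2 groups, per the labels, is the mean of 3 biological replicates on separate arrays. The authors deposited normalized intensities on a linear scale, with the SD between arrays and a detection p-value for each array gene and group. How the intensities were normalized, and on which array version, was not given in the sources used here. In all 31492 array genes the authors' deposited ratio equals RANKL over M-CSF (relative tolerance 1e-06), against its header, and was not used further. The value table holds the same means.

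The log2 ratio of the group means was tested from the deposited SDs. The variance of each log2 mean was derived by the delta method, pooled on 4 degrees of freedom and moderated across genes by an intensity trend (squeezeVar, limma 3.58.1, R 4.3.3, prior degrees of freedom 7.49). Two-sided p-values were adjusted by Benjamini-Hochberg over the 11012 array genes whose detection p was below 0.01 in either group, and the threshold was 0.05. The same fit was run with a minimum mean signal of 200 in place of detection. A gene that lay undetected in 1 group, below the lowest signal with a regular detection p (198 with M-CSF, 196 with RANKL), has only a lower bound for its fold. The procedure was tested on simulated data. Background, the median of undetected genes, was 145 in both groups. Where several array genes share a listed symbol outside the 47, the brightest stands for it.

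Every gene of the list could be named. From the lists of other mitosis genes, regulators and DNA replication genes the largest fall and rise among called genes were named. Any gene of a count of 5 or fewer was named there too. The marker lists were not named by this rule, and only a few of their genes are given. Among regulators of mitotic gene transcription all genes that fell were named. Genes and lists were chosen with earlier results of these data known, so they are no independent support for a direction. The printed promoter window and the window of 100 bases around the start were chosen after the data were seen. RefSeq names and promoters are of GRCm38.p6. The array's build is not named in the sources used here.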

Additional observations from a re-analysis of the deposited data

How the results depend on the processing

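The number of listed mitosis genes that fell stayed between 18 and 27 of 31 tested with doubled SDs, no moderation, no intensity trend, a test of linear means, subtraction of background, centring on the median and an adjusted p of 0.01. It was 25 of 28 with detection required in both groups, 36 of 41 with the signal filter and 37 of 47 with no filter. Of array genes detected in both groups 28.6% were lower, by the fit with detection in either group. With the signal filter 29.4% of array genes were lower. For the other settings the share over all array genes was not counted. Risen genes numbered 1 (ESPL1) under the signal filter and 1 when no filter was used, against 0. The median log2 ratio moved to −0.90 after subtraction of background and lay between −0.76 and −0.70 otherwise. With both SDs doubled, 17 other mitosis genes and 16 DNA replication genes fell, against 29 and 28, because that setting widens every error. Doubled SDs ended 9 of the 27 single calls, those of BUB1B, MAD2L1, PTTG1, CENPA, CENPF, TACC3, H2AFZ, CIT and SHCBP1. The test of linear means ended 6, those of PLK1, PTTG1, CENPA, TPX2, TACC3 and CIT. Without moderation the calls of TACC3 and CIT were lost, and at 0.01 that of TACC3. Only subtraction of background and centring can alter a log2 ratio, and neither reversed its sign in the 31 genes tested. No paired analysis was possible because only group means and SDs were analysed here, and single arrays could not be left out for the same reason. Signals near background limit what can be seen of BUB1, TTK, CENPE, HMMR and RACGAP1, none of which passed with no filter.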

Other observations

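The list of other mitosis genes holds subunits of the APC/C and of cohesin, the ring that ties sister chromatids, and they were grouped after their values were seen. Of the APC/C subunits tested, ANAPC5 fell from 6596 ± 879.6 to 4373 ± 210.0 (log2 −0.59, adjusted p = 0.00043, limma), and CDC16 rose, as given above. ANAPC11 passed as lower (adjusted p = 0.0334, limma), but it read 185 ± 13.1 with M-CSF and 157 ± 8.09 with RANKL, below the lowest signal with a regular detection p in both groups, so no fold is given. CDC23, CDC27, ANAPC2, ANAPC4 and ANAPC7 did not pass, with log2 ratios of 0.04, 0.13, −0.04, 0.20 and 0.02. The APC/C activator FZR1, which replaces CDC20 at mitotic exit, read 3656 ± 147 with M-CSF and 3365 ± 110.5 with RANKL and did not pass. Of the cohesin genes, STAG1, left out by its detection p, fell with the signal filter from 663 ± 54.1 to 527 ± 32.6 (log2 −0.33, adjusted p = 0.0138, limma). SMC1A read 2815 ± 83.3 with M-CSF and 3019 ± 162 with RANKL, STAG2 read 2299 ± 235 with M-CSF and 2312 ± 110.2 with RANKL and RAD21 read 239 ± 8.18 with M-CSF and 213 ± 12.6 with RANKL, and none of these 3 passed. ZWINT, a kinetochore protein, read 9488 ± 687 with M-CSF and 9507 ± 907 with RANKL (log2 0.00, adjusted p = 0.982, limma).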
